A study of Mus musculus with 4 samples.

Results

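The genes described here detect DNA or RNA in the wrong place in a cell, or pass that signal on. They are Cgas, Sting1, Tbk1, Trex1, Ddx58, Ifih1, Dhx58, Mavs, Tlr3 and Zbp1. These 10 of the 55416 genes in the files were chosen by name for their place in the pathway, and all 10 were found and tested among 16304 genes with a mean of at least 0.5 TPM (transcripts per 1000000, a level corrected for transcript length and depth). C2C12 is a mouse myoblast line, and its replicates are samples of that line rather than of different animals. The titles of the K97E samples name the cells C1C12, while their cell line and source fields give C2C12, which is used here. In the mutant group, 2 libraries came from cells transfected with K97E lamin A, which the study describes as a dilated cardiomyopathy mutant. In the other group, 2 libraries came from cells transfected with wild-type lamin A. Cells of both groups had received 3 µg of DNA with a lipid reagent of the Lipofectamine brand and were harvested after 24 h, so every library comes from cells exposed to foreign DNA. No untransfected or reagent-only cells were analysed here, so the response to transfection itself cannot be read from these libraries. The labels call the replicates biological but name no separate cultures, so each p-value reflects how far these samples lie apart, and that spread could be technical.

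As background, cells carry receptors for nucleic acids that report a virus, damaged chromatin or transfected DNA. The enzyme cGAS binds double-stranded DNA and makes a cyclic dinucleotide that activates STING, while the helicases RIG-I (gene Ddx58) and MDA5 (gene Ifih1) bind RNA and activate MAVS on mitochondria. These routes meet at the kinase TBK1, which activates the transcription factor IRF3 and so the interferon beta gene, and interferon in turn raises many of the sensor genes themselves. DNA from a ruptured nucleus is one possible ligand of cGAS, which gives the pathway an interest in cells with altered lamina proteins.

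Promoter sequences were examined because several of the 10 genes belong to the class that interferon induces through a repeated GAAA element. RefSeq windows of GRCm38.p6, 300 bases each with 250 before the annotated start, were found for 7 of the 10 genes, and were searched on both strands for GAAA, any 2 bases and GAAA again (read on the other strand as TTTC, any 2 bases and TTTC). The motif lay in the windows of 2 of those 7 genes, Ddx58 and Ifih1, and in 3.99% of the 27025 genes with a window. In Ddx58 (minus strand, chr4:40239796-40240075) and Ifih1 (minus strand, chr2:62646206-62646235) the match lay just after the annotated start, at window bases 253 to 262 and 283 to 292. The Tlr3 stretch (minus strand, chr8:45410381-45410630) is shown because that gene had the largest difference between the groups, and its window held no match. Capitals mark the motif, and each line runs 5′ to 3′ on the gene's strand.
Ddx58: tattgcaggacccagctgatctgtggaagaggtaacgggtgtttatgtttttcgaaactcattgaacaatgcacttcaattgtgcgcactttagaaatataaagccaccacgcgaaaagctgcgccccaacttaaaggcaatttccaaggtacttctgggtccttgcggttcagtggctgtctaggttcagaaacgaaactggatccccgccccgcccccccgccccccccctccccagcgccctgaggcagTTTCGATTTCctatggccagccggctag
Ifih1: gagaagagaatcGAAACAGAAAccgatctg
Tlr3: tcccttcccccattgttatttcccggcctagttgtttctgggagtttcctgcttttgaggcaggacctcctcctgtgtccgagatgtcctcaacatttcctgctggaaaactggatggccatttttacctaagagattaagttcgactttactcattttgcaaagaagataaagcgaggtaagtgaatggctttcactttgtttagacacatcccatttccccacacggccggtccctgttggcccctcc
The windows of Cgas, Tbk1, Trex1 and Mavs held no match. Of 6 early IRF3 target genes with a window, the same search found the motif in 5. A match describes letters in a short window, and says nothing about whether a factor was bound there.

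All 10 genes were transcribed in every library, over a range of levels that was much wider between genes than between groups. Zbp1 and Ddx58 stood highest, above 98.5% and 98.2% of the tested genes, and Cgas stood lowest, above 40.2% of them. Between these ends came Trex1, then Dhx58, then Sting1, Ifih1, Tbk1 and Tlr3 close together, then Mavs. The means of Sting1, Ifih1, Tbk1 and Tlr3 over all libraries ran from 56.0 to 62.8 TPM, and their order changed from library to library. Zbp1 exceeded Ddx58 and Mavs exceeded Cgas in each of the 4 libraries.

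**Figure D1:**
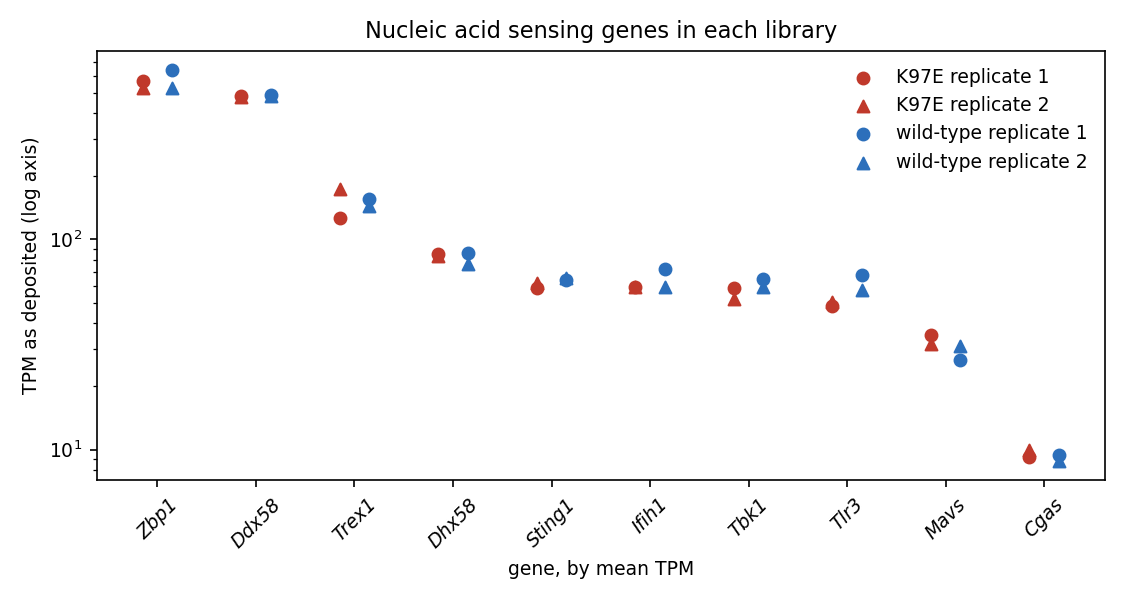
Deposited TPM of the 10 nucleic acid sensing genes in each library, on a log axis, with K97E points left of wild-type points for each gene. Levels run from about 9 TPM for Cgas (8.85 to 9.98) to between 523 and 638 TPM for Zbp1, and the points of the groups lie close together within each gene.

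The design sets K97E against wild-type lamin A, and here asks how far the sensing genes differed between them. No gene of the 10 passed the test (limma, Benjamini-Hochberg over all tested genes; adjusted p from 0.965 to 0.999), where 1 of 16304 genes did (0.00613%). With voom weights on estimated reads in limma none of the 10 was called either, against 5 of all tested genes (0.0307%). At an unadjusted p under 0.05 there was 1 of the 10, Tlr3, which was lower with K97E, against 3.68% of tested genes in either direction, 2.54% lower and 1.14% higher. The log2 difference was negative for 8 of the 10 and positive for Mavs and Cgas, against 50.5% negative among tested genes. Its median was -0.105 over the 10 genes and -0.002 over all tested genes. On scaled values the groups did not overlap for 6 of the 10: Tlr3, Tbk1, Ifih1, Sting1 and Ddx58 lay lower in both K97E libraries and Mavs lay higher, against 16.8% of tested genes lower, 16.3% higher and 33.1% in either direction.

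**Figure D2:**
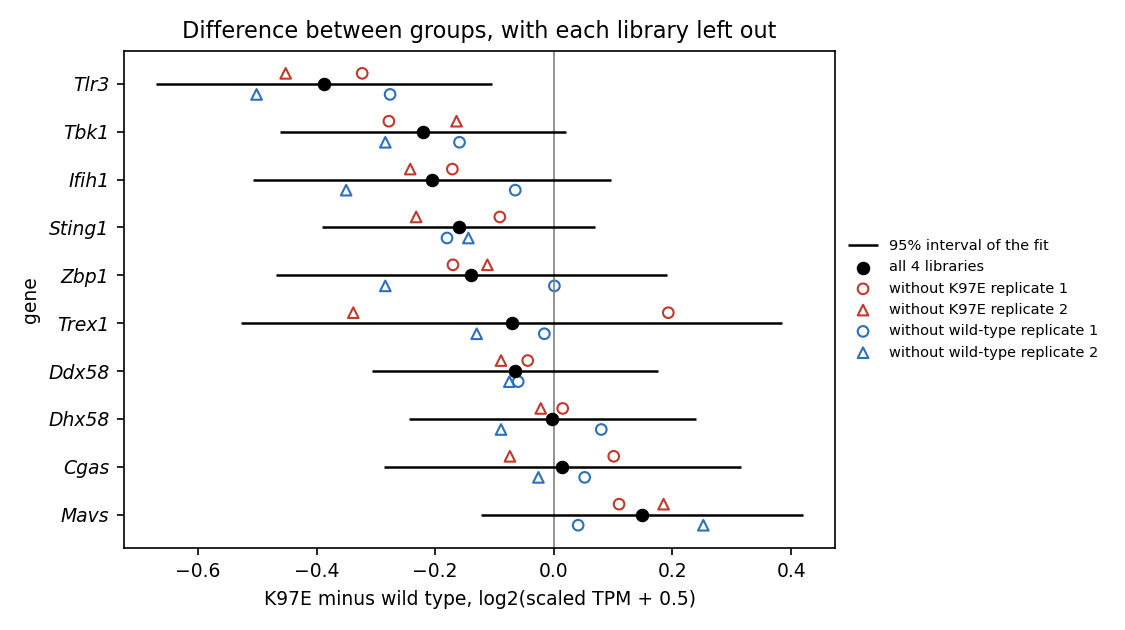
Difference between the groups for each gene, K97E minus wild type on the log2(scaled TPM + 0.5) scale, with the fit over all 4 libraries (black), its 95% interval, and the values with each library left out in turn (open symbols). Tlr3 lies at -0.39 with an interval from -0.67 to -0.10, and the intervals of the other genes include 0.

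The DNA-sensing arm begins with Cgas, the enzyme that detects DNA. Cgas (ENSMUSG00000032344; GRCm39 chromosome 9, 78337808 to 78350519, minus strand) stood at 9.20 and 9.98 TPM in the K97E libraries, against 9.38 and 8.85 TPM in the wild-type libraries. The groups overlapped, and Cgas was the least abundant of the 10, with at least 1591 estimated reads in a library. In the limma fit it differed by 0.014 on the log2 scale (SE 0.12), with a 95% interval from -0.29 to 0.32.

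Trex1 encodes a 3′ exonuclease that degrades stray DNA and so limits the signal to cGAS. Trex1 (ENSMUSG00000049734; GRCm39 chromosome 9, 108887001 to 108888802, minus strand) stood at 126 and 174 TPM in the K97E libraries, against 156 and 144 TPM in the wild-type libraries. The K97E libraries lay on either side of both wild-type libraries, the widest spread between replicates of the 10 genes on the log2 scale. Its mean was 150.3 ± 34.1 TPM with K97E and 149.9 ± 8.5 TPM with wild-type lamin A (SD, n = 2 each). On the log2 scale the difference was -0.071 (SE 0.18), and turned to 0.19 without K97E replicate 1 and to -0.34 without K97E replicate 2. Exons of Trex1 overlap those of Atrip on the same strand, which had a mean of 20.8 TPM, so reads in the overlap could have been credited to either gene.

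Sting1 encodes STING, the receptor of the cyclic dinucleotide made by cGAS, on the endoplasmic reticulum. Sting1 (ENSMUSG00000024349; GRCm39 chromosome 18, 35866732 to 35873607, minus strand) stood at 58.9 and 62.1 TPM in the K97E libraries, against 64.2 and 65.8 TPM in the wild-type libraries. Both K97E values lay below both wild-type values. The log2 difference was -0.16 (SE 0.09, limma adjusted p = 0.965), with an interval from -0.39 to 0.07.

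The RNA arm is built on 3 related helicases. Ddx58 encodes RIG-I, which recognises short double-stranded RNA with a 5′ triphosphate, and lies at GRCm39 chromosome 4, 40203773 to 40239828, minus strand (ENSMUSG00000040296). Ddx58 stood at 484 and 477 TPM in the K97E libraries, against 486 and 480 TPM in the wild-type libraries. The groups overlapped in TPM, while on scaled values both K97E libraries lay lower. Its log2 difference of -0.065 (SE 0.10) moved least of the 10 when a library was left out, from -0.089 to -0.044.

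Ifih1 encodes MDA5, which recognises long double-stranded RNA. Ifih1 (ENSMUSG00000026896; GRCm39 chromosome 2, 62426142 to 62476599, minus strand) stood at 59.1 and 59.4 TPM in the K97E libraries, against 72.6 and 59.4 TPM in the wild-type libraries. Wild-type replicate 1 alone stood apart, and the other wild-type library matched the K97E level. The log2 difference of -0.21 (SE 0.12, limma adjusted p = 0.965) became -0.065 when wild-type replicate 1 was left out and -0.35 when wild-type replicate 2 was.

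Dhx58 encodes LGP2, a relative of RIG-I and MDA5 that lacks the signalling domain and modulates both. Dhx58 (ENSMUSG00000017830; GRCm39 chromosome 11, 100585710 to 100595097, minus strand) stood at 84.8 and 83.1 TPM in the K97E libraries, against 85.7 and 76.1 TPM in the wild-type libraries. The groups overlapped, and the log2 difference was -0.003 (SE 0.10), with an interval from -0.24 to 0.24. An antisense gene, Dhx58os, overlaps it on the plus strand at a mean of 1.04 TPM, and the recorded StringTie command names no strand option although the library kit is stranded. Among the 3 helicase genes, Ddx58 exceeded Dhx58 and Dhx58 exceeded Ifih1 in every library.

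Mavs encodes the mitochondrial adaptor through which RIG-I and MDA5 signal, and it was the only gene of the 10 with both K97E values above both wild-type values. Mavs (ENSMUSG00000037523; GRCm39 chromosome 2, 131075983 to 131089945, plus strand) stood at 35.0 and 31.7 TPM in the K97E libraries, against 26.8 and 31.0 TPM in the wild-type libraries. The second library of each group differed little. Mavs differed by 0.15 on the log2 scale (SE 0.11, limma adjusted p = 0.965), by 0.041 when wild-type replicate 1 was left out and by 0.25 when wild-type replicate 2 was.

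Tbk1 encodes the kinase downstream of STING, MAVS and the TLR3 adaptor. Tbk1 (ENSMUSG00000020115; GRCm39 chromosome 10, 121382360 to 121422692, minus strand) stood at 58.9 and 51.9 TPM in the K97E libraries, against 64.7 and 59.2 TPM in the wild-type libraries. The highest K97E value lay just under the lowest wild-type value. Tbk1 differed by -0.22 on the log2 scale (SE 0.10, limma adjusted p = 0.965), with an interval from -0.46 to 0.02. The difference ran from -0.28 to -0.16 with a library left out.

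Tlr3 encodes a membrane receptor that detects double-stranded RNA inside endosomes, and it showed the largest difference of the 10 genes. Tlr3 (ENSMUSG00000031639; GRCm39 chromosome 8, 45848702 to 45864117, minus strand) stood at 48.4 and 50.6 TPM in the K97E libraries, against 67.5 and 57.6 TPM in the wild-type libraries. Both K97E values lay below both wild-type values, and the gap between the nearest libraries was narrower than the gap between the wild-type libraries. The mean was 49.5 ± 1.6 TPM with K97E and 62.5 ± 7.0 TPM with wild-type lamin A (SD, n = 2 each). The log2 difference was -0.39 (SE 0.11), with an unadjusted p of 0.0162 and an adjusted p of 0.965 in limma over all tested genes, and ran from -0.50 to -0.28 with a library left out. In bulk RNA, fewer cells expressing a gene and less RNA per cell cannot be told apart.

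Zbp1 encodes a sensor of nucleic acids in the left-handed Z form, linked to necroptotic cell death, and was the most abundant of the 10. Zbp1 (ENSMUSG00000027514; GRCm39 chromosome 2, 173048405 to 173060716, minus strand) stood at 569.7 and 523 TPM in the K97E libraries, against 638 and 523 TPM in the wild-type libraries. The second libraries of the groups were level, and wild-type replicate 1 was the highest. Zbp1 differed by -0.14 on the log2 scale (SE 0.13, limma adjusted p = 0.965), by 0.001 when wild-type replicate 1 was left out and by -0.28 when wild-type replicate 2 was.

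The size of several differences leaned on single libraries. Tlr3, Tbk1, Ifih1, Sting1, Ddx58 and Mavs kept their sign with each library left out. The groups did not overlap on scaled values for these genes, so leaving out 1 library could hardly change that sign. On scaled values, wild-type replicate 1 was the highest of the 4 libraries for 6 of the 10 genes, and K97E replicate 1 was the lowest for 6. The share of all tested genes was not computed for these counts. The wild-type libraries lay further apart than the K97E libraries for 6 of the 10, against 60.8% of tested genes. The median centred log2 value of the 10 genes was -0.067 and -0.011 in the K97E libraries, against 0.09 and 0.001 in the wild-type libraries. Without wild-type replicate 1 the median difference of the 10 genes was -0.038 and 6 were negative. Without K97E replicate 1 it was -0.067, 6 were negative, and none of the 10, Tlr3 included, reached an unadjusted p under 0.05, against 2.26% of tested genes in the same fit. Without wild-type replicate 2 it was -0.14, 9 were negative, and 4 reached an unadjusted p under 0.05, against 14.5% of tested genes in the same fit, although none was called. Transcripts of the mitochondrial genome made up 5.55% and 5.29% of TPM in the K97E libraries, against 7.37% and 5.37% in the wild-type libraries, so wild-type replicate 1 stood apart there too. The part of that library in these differences was not tested beyond leaving it out.

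The 10 genes have 59 transcripts in the files, and their types were taken by transcript ID from GENCODE M21. Trex1 was credited to coding transcripts alone in every library, and Tlr3, Ifih1 and Dhx58 to at least 91.3%. Ddx58 was the opposite: its coding transcripts held 32.1% and 27.8% of its TPM in the K97E libraries, against 37.5% and 34.9% in the wild-type libraries. Most of the rest belonged to ENSMUST00000137903, a noncoding transcript of 9 exons over the 3′ part of the gene, at 197 and 202 TPM with K97E, against 196 and 190.0 TPM with wild-type lamin A. The full-length coding transcript ENSMUST00000037907, of 18 exons, stood at 155 and 118 TPM with K97E, against 169 and 134 TPM with wild-type lamin A. The Ddx58 total is therefore mostly a sum over partial transcripts, each counted by its own length.

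**Figure D3:**
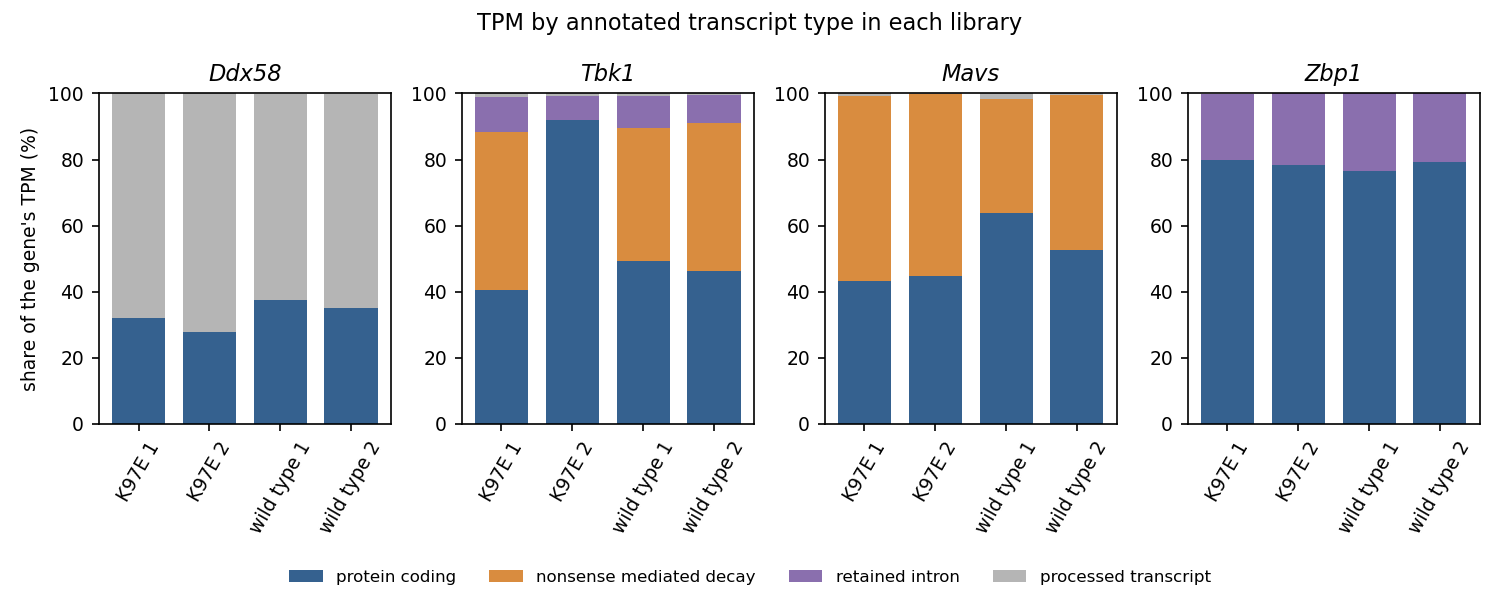
Share of the TPM of Ddx58, Tbk1, Mavs and Zbp1 credited to each annotated transcript type, 1 bar for each library with K97E on the left. Coding transcripts hold 92.0% of Tbk1 in K97E replicate 2 and 40.6% to 49.3% in the other libraries, and for Mavs they hold 43.2% and 44.8% with K97E, against 63.7% and 52.5% with wild-type lamin A.

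Mavs was higher in total with K97E but not in the TPM that StringTie credited to its coding transcripts. These summed to 15.1 and 14.2 TPM in the K97E libraries, against 17.1 and 16.3 TPM in the wild-type libraries. Scaled exon coverage from all transcripts (described below) was 32.2 and 30.7 for Mavs with K97E, against 26.2 and 30.5 with wild-type lamin A. The transcript ENSMUST00000130597, annotated as a target of nonsense-mediated decay (the destruction of RNA with an early stop), stood at 19.6 and 17.4 TPM with K97E, against 9.27 and 14.6 TPM with wild-type lamin A. The coding sum and this transcript separated the groups, in opposite directions, and neither was tested. The share of all transcripts that separate in this way was not computed. This transcript shares 2826 bases with the main coding transcript ENSMUST00000110199 and has 133 bases of its own, against 231 found only in the coding transcript. For Tbk1, the transcript ENSMUST00000219400, also annotated for nonsense-mediated decay, was listed at 28.0 and 0 TPM in the K97E libraries, against 26.03 and 26.6 TPM in the wild-type libraries. It has no base outside the coding transcript ENSMUST00000020316, which has 19 bases more. The coding transcript stood at 23.9 and 47.7 TPM in the K97E libraries, against 31.9 and 27.3 TPM in the wild-type libraries. For Tlr3, the coding transcript ENSMUST00000209772 stood at 2.79 and 12.1 TPM with K97E, against 21.3 and 21.6 TPM with wild-type lamin A. The longest, ENSMUST00000034056, stood at 36.8 and 32.9 TPM with K97E, against 38.5 and 26.6 TPM with wild-type lamin A. These Tlr3 transcripts share 4015 bases. No transcript share was tested, and StringTie divides reads among such overlapping transcripts by its model.

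Coverage from all transcripts of a gene was then summed over the exons of its longest coding transcript, in TPM units after scaling. Each annotated exon entered with its mean coverage, in proportion to its overlap with the coding exon. The division of reads among exons of unlike extent, such as those with a retained intron, therefore still enters this measure. On this scale Ddx58 averaged 301 with K97E and 325 with wild-type lamin A, and Zbp1 432 and 480.4, so Zbp1 stayed the most abundant. On the log2 scale the difference was -0.39 for Tlr3, -0.23 for Ifih1, -0.23 for Tbk1 and 0.15 for Mavs, close to those of summed TPM. Sting1 overlapped between groups here, at -0.11, and Dhx58 lay at 0.016. Exons were compared in the same way over 12158 tested genes, where 12.5% of 135998 exons had both K97E values below both wild-type values and 21.7% had both above. In Tlr3 all 7 exons had both K97E values below both wild-type values, and in Tbk1 18 of 21 exons did. In Ifih1 11 of 16 exons and in Ddx58 10 of 18 exons did, and each of these genes had 1 exon with the groups separated the other way. In Sting1 3 of 8 exons lay lower with K97E and none higher. In Dhx58 5 of 13 exons had both K97E values above both wild-type values and none below. Zbp1, Mavs and Cgas each had 1 exon with K97E higher and none lower, and both exons of Trex1 overlapped. Over the 10 genes, 49 of 105 exons lay lower with K97E and 10 lay higher. Exons of a gene share their libraries and are not replicates.

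Along the genes, coverage was uneven, and wild-type replicate 1 stood apart at several exons. Exon 10 of Ifih1 stood at 103.9 and 106.7 in the K97E libraries, against 199 in wild-type replicate 1 and 112 in the other wild-type library. Exon 16 of Ddx58 stood at 405 and 412 in the K97E libraries, against 531 in wild-type replicate 1 and 429 in the other wild-type library. Exon 15 of Tbk1 stood at 64.1 and 63.8 in the K97E libraries, against 104.3 in wild-type replicate 1 and 78.6 in the other wild-type library. The first exon of Ifih1 went the other way, at 44.1 and 46.1 in the K97E libraries, against 37.2 in wild-type replicate 1 and 49.5 in the other wild-type library. The part of this unevenness in the gene differences was not tested.

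**Figure D4:**
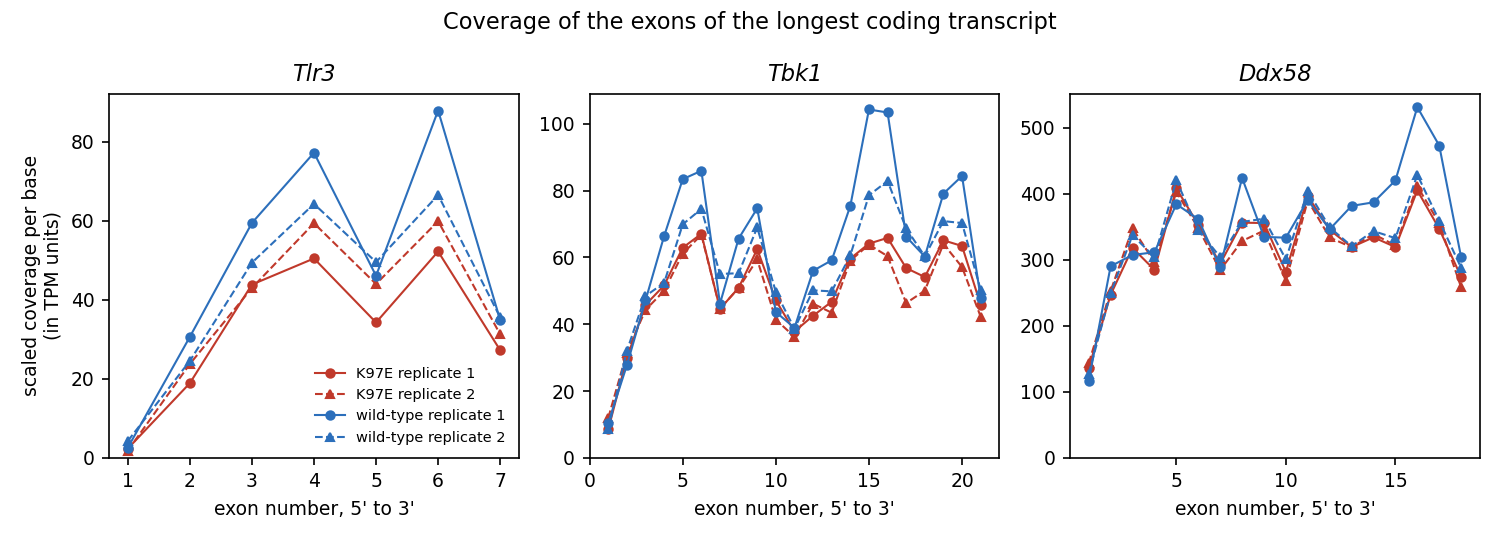
Scaled coverage per base, in TPM units, over the exons of the longest coding transcript of Tlr3, Tbk1 and Ddx58, numbered 5′ to 3′, with 1 line for each library (red K97E, blue wild type). The K97E lines lie lowest over all 7 Tlr3 exons, and wild-type replicate 1 peaks at 104.3 in exon 15 of Tbk1 and at 531 in exon 16 of Ddx58.

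RNA of some interferon genes downstream of these sensors was found in all libraries, at unequal levels, and sensor activity was not measured. Ifnb1, the interferon beta gene and the direct product of the pathway, stood at 4.70 and 12.6 TPM in the K97E libraries, against 19.0 and 8.89 TPM in the wild-type libraries. The groups overlapped, and Ifnb1 differed by -0.77 on the log2 scale (SE 0.53; adjusted p = 0.965 in limma). It was lowest in K97E replicate 1 and highest in wild-type replicate 1. Ifna4, an interferon alpha gene, stood at 1.15 and 2.42 TPM with K97E, against 4.31 and 2.37 TPM with wild-type lamin A. Of 24 genes for type I and III interferons and their receptors 6 were tested and none was called, with a median of -0.20. All 6 had a negative log2 difference, against 50.5% of tested genes. Ifnz, at -0.01 (SE 0.2), was lower only after scaling. It stood at 1.055 and 1.304 TPM with K97E, against 1.107 and 1.175 TPM with wild-type lamin A. The interferon lambda genes Ifnl2 and Ifnl3 were listed at 0 in every library. Ifnar2, a chain of the type I interferon receptor, stood at 65.6 and 61.9 TPM with K97E, against 84.8 and 63.2 TPM with wild-type lamin A.

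Early target genes of IRF3 were abundant with either lamin A. All 7 genes of the list had a negative log2 difference, against 50.5% of tested genes. None was called and none had an unadjusted p under 0.05 in limma, and their median was -0.27. Isg15, at -0.017 (SE 0.14), was lower only after scaling. It stood at 1642 and 1765 TPM with K97E, against 1689 and 1620 TPM with wild-type lamin A. Cxcl10, a T-cell attractant, stood at 495 and 787 TPM with K97E, against 975 and 813 TPM with wild-type lamin A, a log2 difference of -0.57 (SE 0.26). Rsad2, which encodes the antiviral enzyme viperin, stood at 496 and 594 TPM with K97E, against 697 and 586 TPM with wild-type lamin A.

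The relay between sensors and targets showed no common direction. Of 16 kinases, adaptors and transcription factors 15 were tested, 7 lower and 8 higher by value, with a median of 0.001. Irf3, the transcription factor activated by TBK1, stood at 30.4 and 27.8 TPM with K97E, against 27.6 and 29.0 TPM with wild-type lamin A. Irf7, its interferon-induced relative, was far more abundant at 758 and 709.5 TPM with K97E, against 633 and 694 TPM with wild-type lamin A. Ikbke, the kinase most like TBK1, differed by -0.17 (SE 0.10). Tank, an adaptor of TBK1, and Nfkb1, an NF-kB subunit, reached an unadjusted p under 0.05 in limma, with log2 differences of -0.32 and -0.26, and an adjusted p of 0.965 each.

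Some partners that the sensors need were near 0. TLR3 depends on the transport protein UNC93B1, and Unc93b1 stood at 0.03 and 0.08 TPM in the K97E libraries, against 0 and 0.19 TPM in the wild-type libraries. ZBP1 signals to cell death through the kinase RIPK3, and Ripk3 was listed at 0.08 and 0 TPM with K97E, and at 0 in each wild-type library. Mlkl, which carries out necroptosis below RIPK3, was by contrast abundant at 275 and 307 TPM with K97E, against 364 and 294 TPM with wild-type lamin A. Ticam1, the adaptor of TLR3, differed by -0.13 (SE 0.10). Of the 11 TLR3 and ZBP1 partners 9 were tested, 5 were lower by value and none was called, with a median of -0.13, and Hsp90b1, a chaperone of Toll-like receptors, differed by -0.18.

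**Figure D5:**
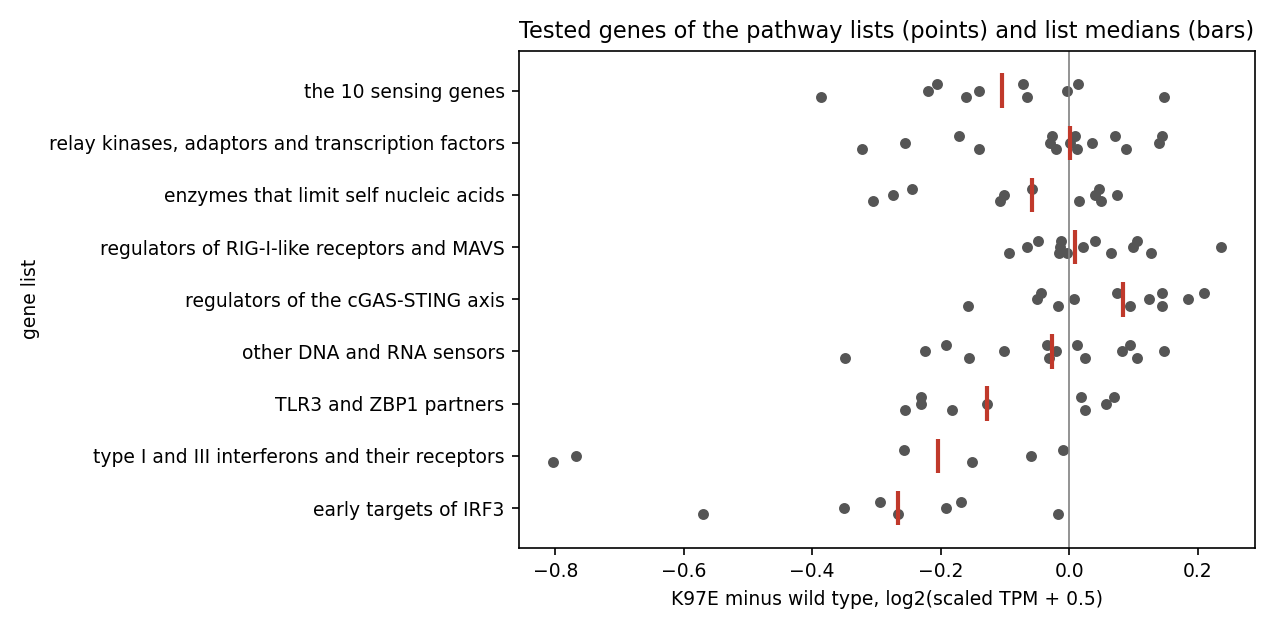
Difference between groups, K97E minus wild type on the log2(scaled TPM + 0.5) scale, for tested genes of 8 pathway lists and the 10 sensing genes (points), with each list's median (red bars). The early IRF3 targets have a median of -0.27 and the regulators of cGAS and STING one of 0.08, and none of the genes shown was called.

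Other sensors and regulators likewise held no called gene. Of 18 other DNA and RNA sensors 14 were tested, 8 lower and 6 higher by value, with a median of -0.03. Aim2, the DNA sensor of an inflammasome, stood at 25.2 and 21.5 TPM with K97E, against 26.6 and 30.8 TPM with wild-type lamin A, an unadjusted p of 0.0283 and an adjusted p of 0.965 in limma. Ddx60, a helicase proposed to assist RIG-I, differed by -0.22. The endosomal receptors Tlr7, Tlr8, Tlr9 and Tlr13 were under 0.5 TPM in every library. Of 11 enzymes that limit self nucleic acids 6 were lower and 5 higher by value, with Pnpt1, a mitochondrial RNA-degrading enzyme, at -0.24 and Dnase2a, a lysosomal DNase, at -0.31. Of 15 regulators of the RIG-I-like receptors and MAVS 14 were tested, 7 lower and 7 higher by value, with a median of 0.009. Nlrx1, a mitochondrial inhibitor of MAVS, lay at 0.24 and Mex3c, a ubiquitin ligase, at 0.105. Zcchc3 was listed at 0 in every library. Of 12 regulators of cGAS and STING 8 were higher by value, with Slc19a1, a folate carrier that takes up cyclic dinucleotides in human cells, at 0.21 and Stim1, a calcium sensor of the endoplasmic reticulum, at 0.185.

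The genes whose pattern over the 4 libraries lay closest to the median profile of the 10 were Sin3a, Mrps2, Sms, Mapk8 and Rpl34-ps1, by Euclidean distance of centred log2 values. With 4 libraries such a match is a description only, and these genes differed between groups by -0.09 to -0.08.

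Estimated from coverage, transcripts drew 115619092 and 107805586 reads (100 bases each) with K97E, against 89612698 and 106357912 reads with wild-type lamin A. Across tested genes, which are not independent replicates, the Pearson correlation was 0.9911 between the K97E libraries, 0.9866 to 0.9895 across groups and 0.9849 between the wild-type libraries. Lmna, the gene that encodes lamin A, stood at 659.7 and 629 TPM with K97E, against 558 and 596 TPM with wild-type lamin A, values that include any reads of the transfected DNA that aligned there. Of 8 myoblast markers, Des, Myf5, Cdh15, Chrna1, Itga7 and Myod1 were measured, while Pax7 and Msc were under 0.5 TPM in every library. Of 12 leukocyte markers 9 were under 0.5 TPM in every library, including Ptprc, and the list summed to 57.3 and 55.1 TPM with K97E, against 47.6 and 64.6 TPM with wild-type lamin A. Cd14, which held most of that sum, stood at 50.9 and 50.6 TPM with K97E, against 42.7 and 57.1 TPM with wild-type lamin A, and Cd68 differed by -0.31 (SE 0.22). Chrna1, a muscle acetylcholine receptor subunit, stood at 40.2 and 41.3 TPM with K97E, against 49.8 and 51.8 TPM with wild-type lamin A. Its log2 difference of -0.37 (SE 0.09) had an unadjusted p of 0.00737 and an adjusted p of 0.965 in limma. That unadjusted p was smaller than that of Tlr3, and any relation to the Tlr3 difference was not tested. Des differed by -0.20, the endothelial marker Cdh5 by -0.14, and the fibroblast markers Pdgfrb and Dcn by 0.19 and -0.38, none of them called. Of 6 endothelial markers 5, and of 6 fibroblast markers 3, were under 0.5 TPM in every library.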

How the data were processed

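RNA-seq libraries of transfected C2C12 cells were analysed, 2 with K97E and 2 with wild-type lamin A, with groups taken from the genotype label. StringTie 2.1.7, HISAT2, DESeq2, FastQC, SAMtools and GRCm39 are named in the submitters' processing notes, with roles not given in the sources used here. Per the file headers, StringTie estimated annotated transcripts of Ensembl release 104 with no strand option, and the deposited files give coverage, FPKM and TPM for 142434 transcripts. The authors' TPM sums to 1000000 in each library. The files hold no read counts, so no counting interval was computed, and estimated reads are coverage times length divided by 100.

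TPM was summed by gene, scaled by median-of-ratios factors from 13913 genes at 1 TPM or more in all libraries, and log2-transformed with a pseudocount of 0.5, which understates changes of weakly expressed genes. Genes averaging 0.5 TPM or more were tested between groups by limma 3.58.1 (R 4.3.3) (two-sided; eBayes with trend; total degrees of freedom 5.54), calling genes at a Benjamini-Hochberg adjusted p under 0.05. An exact permutation test of 2 against 2 libraries could not go below 0.333. The fit was tested on simulated data. TPM means and SDs are of deposited values. Biotypes came from GENCODE M21 by ID (98.7% of tested genes). Exon coverage sums transcript coverage over each exon of a gene's longest coding transcript. Python 3.11.15, pandas 2.3.3 and matplotlib 3.10.9 were used.

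The 10 genes and the pathway lists were chosen with earlier results of these data known. Context genes named are the 2 with the smallest p in each list, with Ifnb1, Irf3, Irf7, Ikbke and Ticam1. Chosen after their values were seen were genes near 0, Mlkl, Isg15 and Ifnz. The 5 genes closest in pattern were taken from genes at a mean of at least 5 TPM. Alternatives were other pseudocounts, filters, scalings, FPKM as deposited, eBayes without trend, voom weights, coding genes only, replicate blocks and each library left out.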

Additional observations from a re-analysis of the deposited data

How the results depend on the processing

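None of the 10 genes was called under any of the 17 alternatives fitted, where the lowest limma adjusted p was 0.274. Of 178 values of single genes under alternatives 167 kept their sign. Changes to the genes kept, to eBayes or to the replicate block cannot change a gene's log2 difference. The signs under those settings were therefore fixed in advance, and the count overstates how stable the signs were. Cgas turned to -0.0145 with voom weights, and ranged from -0.0741 to 0.1005 with a library left out (-0.0263 without wild-type replicate 2). Dhx58 turned to 0.055 with TPM as deposited, 0.0055 with quantile normalization, 0.0254 with FPKM as deposited and 0.016 by exon coverage, and ranged from -0.089 to 0.0799 with a library left out (0.0145 without K97E replicate 1, 0.0799 without wild-type replicate 1). Trex1 ranged from -0.3378 to 0.1932, the highest without K97E replicate 1, and Zbp1 from -0.2845 to 0.0013, the highest without wild-type replicate 1. The cause was not tested.

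The median of the 10 genes moved to -0.0479 under quantile normalization and to -0.0475 with TPM as deposited, which moved the median of all tested genes to 0.015 and 0.052. It ranged from -0.1382 to -0.0377 with a library left out, with -0.0377 without wild-type replicate 1. Over all genes 1 was called. The count was 14 without wild-type replicate 1, 5 with voom weights, 4 among coding genes only, 2 with TPM as deposited, 2 with eBayes without trend, 0 with no filter, 0 without genes that have overlapping exons, and 0 without any 1 of the other libraries.

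With the replicate number as a block 0 of the 10 genes and 0 of all genes were called. The median of the 10 genes was -0.105, which such a block cannot change in this balanced layout. Same-numbered libraries deviated from their group means with a correlation of -0.137. A crossed replicate block, which called 30 of all tested genes and 0 of the 10, was therefore added after seeing the data, as were the exon coverage measure and the setting without overlapping genes. With 2 libraries a group, the interval printed for each gene limits what could be seen.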
